A study of Mus musculus with 8 samples.

Results

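T-box genes encode transcription factors that share a DNA binding domain, the T-box. The genes described here are Tbx3, Tbx2, Tbx4, Tbx5, Tbx6, Tbx15, Tbx18, Tbx20, Eomes and T, each read only from probe sets that name that gene alone. Of these 10 genes, 9 had 1 such probe set each, out of 19938 genes measured in this way, and T, which encodes Brachyury, was not analysed here. Another 7 genes with a T-box form a second list that is set beside them, of which 6 were measured (Tbx10 was not analysed here).

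The arrays compared a pair of stable lines of E14 cells, a mouse ESC line grown with LIF, the cytokine that keeps such cells undifferentiated. A lentivirus had given the knockdown line the shRNA shKdm2b and the control line a scrambled shRNA, so that both lines had been through infection and selection and differ in the shRNA sequence. Total RNA of 4 samples per line, each on its own Affymetrix Mouse Gene ST array, was taken at passages 27 to 30 for the knockdown and 28 to 31 for the control samples. The samples are labelled as biological replicates, but each line carries 1 shRNA and no separately derived line is named, so that p-values cover the spread among these samples, which may be partly technical, and not that of shRNAs or of lines. The knockdown sample of each replicate number was 1 passage below its control. The shRNA sequences are shown because they are all that sets the lines apart by design, 5′ to 3′ in lower case.
shKdm2b: cgctgtggaaatatctgtcat
scrambled: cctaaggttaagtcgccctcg

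KDM2B is a protein that binds non-methylated CpG dinucleotides through a zinc finger and brings a variant of polycomb repressive complex 1 (PRC1) to CpG islands, where PRC1 marks histone H2A and helps to keep developmental genes silent. T-box genes are well-known polycomb targets in ESCs, since most of them act only once the embryo forms germ layers, heart and limbs. TBX3 is an exception, as ESCs already use it within the LIF-dependent network of self-renewal. T-box proteins as a family bind DNA with the core sequence AGGTGT, some as activators and others, such as TBX2 and TBX3, mainly as repressors. The question was which of these genes were higher or lower when Kdm2b was depleted.

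Start regions of the genes whose array values are discussed most, and for which a RefSeq window was found, are shown for their CpG content, the feature that KDM2B reads. Each line holds 250 bases before and 50 after the annotated start, from RefSeq on GRCm38.p6, 5′ to 3′ on the strand of the gene, with every CpG in capitals. The window of Eomes is chr9:118477939-118478238 on the plus strand, that of Tbx20 is chr9:24774254-24774553 on the minus strand and that of Tbx21, a T-box gene of the second list, is chr11:97115282-97115581 on the minus strand.
Eomes: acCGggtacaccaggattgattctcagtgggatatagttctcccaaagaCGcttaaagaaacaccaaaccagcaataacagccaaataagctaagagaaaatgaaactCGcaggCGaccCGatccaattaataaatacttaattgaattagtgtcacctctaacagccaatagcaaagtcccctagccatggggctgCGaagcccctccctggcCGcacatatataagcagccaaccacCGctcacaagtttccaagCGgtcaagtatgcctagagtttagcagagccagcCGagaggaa
Tbx20: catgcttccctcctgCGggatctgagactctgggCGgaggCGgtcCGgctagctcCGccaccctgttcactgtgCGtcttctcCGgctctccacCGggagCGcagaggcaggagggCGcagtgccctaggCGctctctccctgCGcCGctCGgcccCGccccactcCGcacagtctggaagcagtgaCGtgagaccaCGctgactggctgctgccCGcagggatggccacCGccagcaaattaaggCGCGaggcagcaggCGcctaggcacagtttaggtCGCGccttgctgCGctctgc
Tbx21: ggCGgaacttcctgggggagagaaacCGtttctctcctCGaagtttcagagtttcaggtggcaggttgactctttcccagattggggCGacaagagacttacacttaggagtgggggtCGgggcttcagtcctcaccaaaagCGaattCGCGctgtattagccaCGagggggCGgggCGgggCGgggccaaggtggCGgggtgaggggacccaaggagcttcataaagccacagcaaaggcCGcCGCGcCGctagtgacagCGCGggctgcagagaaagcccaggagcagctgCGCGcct

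The 3 windows differed in how many CpGs they hold. Tbx20 had 26, Tbx21 had 21 and Eomes had 10, where the 32851 windows of the table had a median of 7 and quartiles of 3 and 20. Among the other listed genes, the windows of T, Tbx18, Tbx4 and Tbx6 held 17, 15, 8 and 7 CpGs. A window was found for 6 of the 10 listed genes, and for Tbx3, Tbx2, Tbx5 and Tbx15 none is printed. The core AGGTGT, searched on both strands, lay in the window of T and in none of the 5 windows of measured members, where 13.7% of all windows held it. These counts describe a short window, and no binding or methylation was measured on the arrays.

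Kdm2b mRNA itself, the target that the label shKdm2b names, was lower in the knockdown samples. In the order of replicates 1 to 4, which is kept below, log2 signals were 8.68, 9.12, 9.45 and 8.91 with shKdm2b and 10.74, 11.10, 11.34 and 11.20 with the scrambled shRNA. All knockdown arrays thus lay below all controls, and the log2 fold change was -2.05 (standard error, SE, 0.18, adjusted p = 0.000891, limma). Markers of the labelled cell type were present. All 10 ESC markers, among them Pou5f1, Sox2 and Nanog, had mean log2 signals of 11.50 to 14.28, above the level of 7.81 that marks the 95th percentile of 1035 olfactory receptor probe sets, which served as a reference for dim signal. Signals are log2 values that the authors made with RMA, which gives all arrays the same distribution, and the medians of the 8 arrays were 8.47 to 8.53. RMA shrinks the fold changes of dim probe sets, and apart from this dim reference, each probe set's signal was compared between arrays only.

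Of the 9 measured T-box genes, Tbx3 alone met the gene rule of the study's methods. This rule takes a gene as changed when most of its probe sets have an adjusted p under 0.05 and the most significant one changed at least 1.5-fold. By the rule 1 gene was higher and 0 were lower, while at an unadjusted p under 0.05 (limma) 3 were higher (Tbx3, Eomes and Tbx5) and 2 lower (Tbx4 and Tbx20), where 16.8% and 13.6% of all genes were higher and lower at that threshold. With the replicate number as a block 2 members were higher by the rule, as Eomes was then also called (adjusted p = 0.0491, limma). Over all genes the rule called 1.42% higher, 1.43% lower and 2.85% in either direction, and with 9 genes a count of 1 is too small to be read against such shares. Knockdown and control arrays did not overlap for 2 of the 9 genes (22.2%), Tbx3 above and Tbx20 below, where 21.0% of all genes were separated in this way. The median log2 fold change of the 9 genes was 0.11, beside 0.05 over all genes, with 6 positive and 3 negative values.

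**Figure D1:**
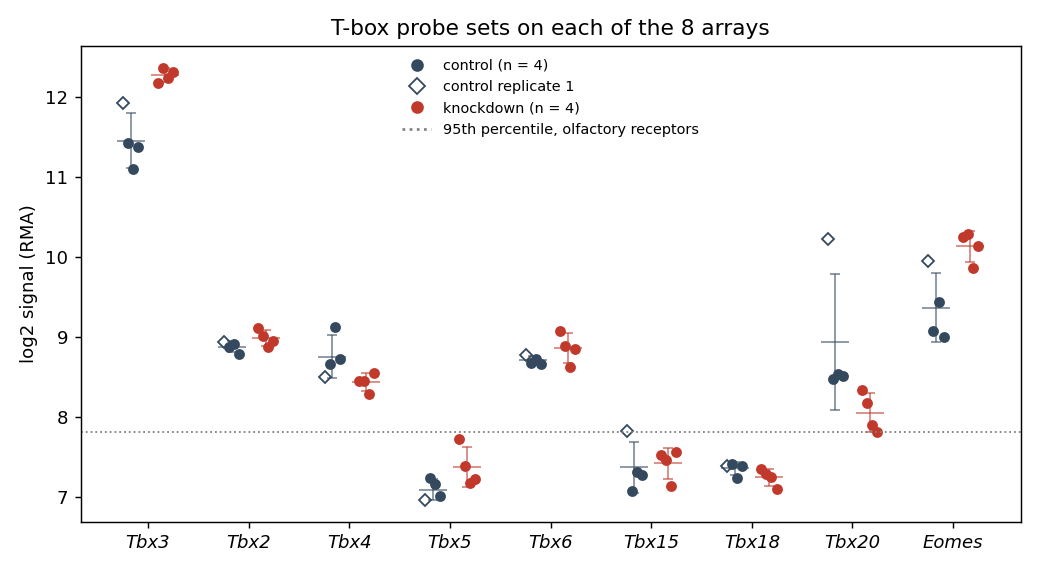
Log2 signal (RMA) of the 9 T-box genes on each of the 8 arrays. Filled points are arrays, the open diamond is control replicate 1, bars are the mean ± SD (n = 4), and the dotted line is the 95th percentile of olfactory receptor probe sets (7.81). The 4 knockdown arrays of Tbx3 lie above all controls, those of Tbx20 lie below all controls, and Tbx5, Tbx15 and Tbx18 have means below the dotted line.

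While Eomes came close, at 1.70-fold, only Tbx3, the repressor that belongs to the ESC network, met the rule with all arrays. The knockdown samples gave log2 signals of 12.18, 12.37, 12.25 and 12.32, and the control samples 11.93, 11.42, 11.10 and 11.38. The knockdown arrays spanned 12.18 to 12.37, whereas the controls spread over a wider range with replicate 1 at the top, and the groups did not overlap. Mean signal rose from 11.46 ± 0.34 to 12.28 ± 0.08 (SD, n = 4), a 1.77-fold rise (log2 fold change 0.82, SE 0.15, 95% confidence interval 0.47 to 1.17, adjusted p = 0.0180, limma). The call depended on which arrays were used. Without knockdown replicate 2, knockdown replicate 4, control replicate 2 and control replicate 4 in turn, adjusted p was 0.0608, 0.0554, 0.0538 and 0.0524 (limma) and the rule was missed, and the rise was larger without control replicate 1, at 0.98 (adjusted p = 0.00342, limma). Over all alternatives the log2 fold change lay between 0.70 and 0.98 and the adjusted p between 0.0020 and 0.10.

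Tbx2, the closest relative of Tbx3 and likewise a repressor, with roles in heart and limb, did not meet the rule. Its signals were 9.11, 9.01, 8.87 and 8.94 in the knockdown and 8.94, 8.88, 8.91 and 8.78 in the control samples. The groups overlapped, and the log2 fold change was 0.11 (95% confidence interval -0.05 to 0.26, adjusted p = 0.355, limma). Tbx4 and Tbx5, the next relatives, encode activators that act in the hindlimb and in the forelimb and heart. Tbx4 gave 8.44, 8.45, 8.28 and 8.55 in the knockdown and 8.50, 8.66, 9.12 and 8.72 in the control samples. For 3 of the knockdown arrays the signal was below every control, and the log2 fold change was -0.32 (SE 0.13, adjusted p = 0.153, limma), or -0.20 without control replicate 3 (adjusted p = 0.258, limma).

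Tbx5 lay among the dim probe sets, with 7.72, 7.38, 7.17 and 7.22 in the knockdown and 6.96, 7.24, 7.15 and 7.01 in the control samples. Knockdown replicate 1 was the highest of all 8 arrays, the groups overlapped, and the log2 fold change was 0.28 (SE 0.12, adjusted p = 0.192, limma), or 0.17 without that array (adjusted p = 0.309, limma). Tbx5 is also the nearest gene with a probe set of its own on 1 side of Tbx3 on chromosome 5. On the other side lies Med13l, which encodes a subunit of the Mediator kinase module. Its log2 fold change was 0.33 (SE 0.05, adjusted p = 0.0102, limma), short of 1.5-fold, and all knockdown arrays, at 12.12 to 12.25, lay above all controls, at 11.81 to 11.91.

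Eomes and Tbx6 act in gastrulation. Eomes directs mesendoderm and trophoblast, and in the knockdown samples its signals were 10.25, 10.29, 9.86 and 10.14, against 9.95, 9.07, 9.44 and 9.00 in the controls. For 3 of the 4 knockdown arrays the signal was above every control, and control replicate 1 lay above knockdown replicate 3. Mean signal was 10.13 ± 0.20 in the knockdown and 9.37 ± 0.44 in the control samples (SD, n = 4), 1.70-fold apart, with a log2 fold change of 0.77 (SE 0.20, 95% confidence interval 0.31 to 1.23, adjusted p = 0.0533, limma). Eomes therefore stood just outside the rule, and small changes of the fit moved it across. With the replicate number as a block it passed at an adjusted p of 0.0491 (limma). It also passed without control replicate 1 (log2 fold change 0.96, adjusted p = 0.0110, limma) and without knockdown replicate 3 (adjusted p = 0.0373, limma), and over all alternatives the adjusted p ran from 0.00601 to 0.137. The genes on either side of Eomes on chromosome 9 had smaller differences, with 0.06 for Cmc1, a mitochondrial assembly factor gene, and 0.08 for Golga4, which encodes a golgin (adjusted p = 0.576 and 0.314, limma).

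Tbx6, which specifies presomitic mesoderm, gave 9.08, 8.89, 8.62 and 8.85 in the knockdown and 8.78, 8.67, 8.73 and 8.66 in the control samples. Knockdown replicate 3 was the lowest of all 8 arrays although the other knockdown arrays were the highest, and the log2 fold change was 0.15 (SE 0.09, adjusted p = 0.341, limma).

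Tbx20, an activator and repressor of the developing heart, had the largest negative difference of the members and the widest interval. Its signals were 8.33, 8.17, 7.90 and 7.81 in the knockdown samples, and 10.22, 8.48, 8.54 and 8.51 in the controls. All knockdown arrays were below all controls, but control replicate 1 stood far above the other controls, at 3.28 times their mean signal. The log2 fold change was -0.89 with all arrays (SE 0.37, 95% confidence interval -1.74 to -0.04, adjusted p = 0.177, limma). Without control replicate 1 it was -0.46 (adjusted p = 0.0694, limma), and Tbx20 met the rule under none of the alternatives, at adjusted p of 0.0694 to 0.312.

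Tbx15 and Tbx18, genes of the skeleton and of the sinus venosus and urinary tract, were dim and their groups overlapped. Tbx15 gave 7.52, 7.45, 7.13 and 7.56 in the knockdown and 7.82, 7.07, 7.31 and 7.28 in the control samples. Control replicate 1 was again the highest array, and the log2 fold change of 0.05 (SE 0.16, adjusted p = 0.881, limma) changed sign under cyclic loess (-0.0072), so that no direction is given. Tbx18 gave 7.35, 7.28, 7.25 and 7.09 in the knockdown and 7.38, 7.41, 7.23 and 7.38 in the control samples, with a log2 fold change of -0.11 (SE 0.07, adjusted p = 0.359, limma). Means of Tbx5, Tbx15 and Tbx18 were below the 95th percentile of olfactory receptor probe sets, so that missing a 1.5-fold rule says little about these 3 genes.

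**Figure D2:**
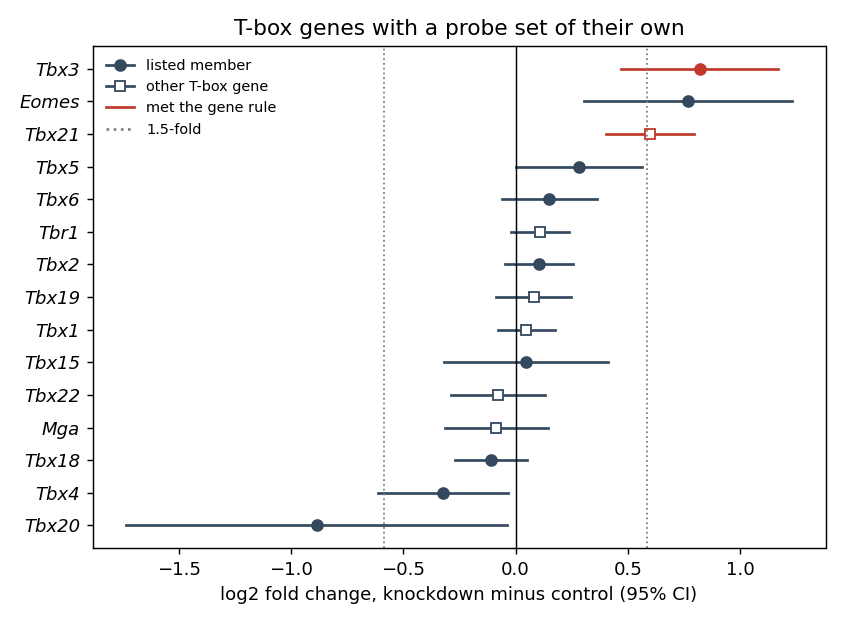
Log2 fold change (knockdown minus control) of the 15 measured T-box genes, with 95% confidence intervals from limma. Filled circles are the 9 listed genes, open squares the other 6, red marks Tbx3 and Tbx21, which met the gene rule, and dotted lines mark 1.5-fold. Eomes lies beside Tbx3 with a wider interval, and Tbx20 has the widest interval of all.

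Control replicate 1 stood apart for several T-box genes. It was the highest control in 6 of the 9 genes. The share of all genes with their highest control signal there was not counted. This count and those of markers below are thus descriptions only and cannot be called particular to these genes. Against the mean of the other controls, control replicate 1 was 1.71 higher on the log2 scale for Tbx20, 0.78 for Eomes, 0.63 for Tbx3 and 0.60 for Tbx15, whereas for Tbx4 the difference was -0.33. For Tbx3 and Eomes this difference has the same sign as that of the knockdown arrays, which were 0.98 and 0.96 above the same mean, and for Tbx20 the opposite sign, with -0.46. Set against the other controls alone, the knockdown mean of Tbx4 differed by -0.41 and that of Tbx15 by 0.20. Trophoblast markers were also high on that array, as 8 of 10 had their highest control signal there. Their mean was 9.76 in control replicate 1, 9.23 to 9.49 in the other controls and 8.97 to 9.36 in the knockdown samples, and among them Elf5 and Plac1 had means at the dim level. Gata3 and Cdx2 were above it, with 9.94 and 8.73 in control replicate 1 beside 8.46 to 8.83 and 8.19 to 8.36 in the other controls. Ascl2 and Krt7, also above it, were not highest there, with 9.53 and 8.94 beside 9.78 to 10.08 and 8.71 to 9.04. Fibroblast markers, of which 6 of 10 were highest there, had a mean of 8.36, beside 7.97 to 8.10 in the other controls and 8.04 to 8.29 in the knockdown samples, with Dcn, Lum, Postn and S100a4 at the dim level on average. Col1a1, well above that level, had 10.37 in control replicate 1 and 9.41 to 9.63 in the other controls. Among the others above that level, Pdgfrb, Twist1 and Col1a2 were also highest there, Col1a2 narrowly at 9.14 beside 9.00 to 9.09. Thy1 was lowest there, at 9.40 beside 9.47 to 9.52, and Col3a1 was not highest, at 8.77 beside 8.63 to 8.80. The ESC markers shared this trait, as 6 of 10 had their highest control signal there. Their mean was 13.11 in control replicate 1, 12.87 to 13.01 in the other controls and 13.16 to 13.21 in the knockdown samples. Whether other cells in that sample have a part in the T-box values was not tested, and in such bulk RNA more cells of a type cannot be told apart from more RNA per cell.

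**Figure D3:**
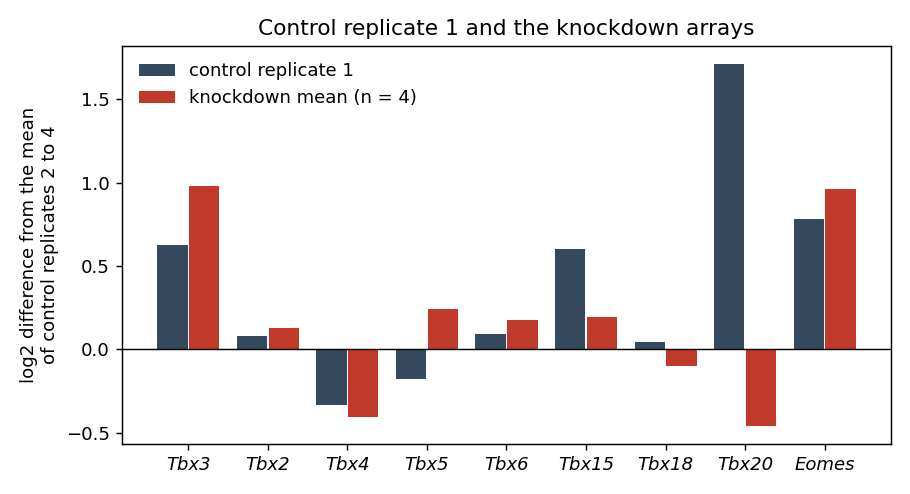
Difference in log2 signal from the mean of control replicates 2 to 4, for control replicate 1 (dark bars, 1 array) and for the mean of the 4 knockdown arrays (red bars), for the 9 T-box genes. Control replicate 1 is 1.71 above the other controls for Tbx20 and lies in the direction of the knockdown for Tbx3 and Eomes.

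In the second list, Tbx21 met the rule. Tbx21 encodes T-bet, the factor of type 1 helper T cells and of natural killer cells, and together with Eomes and Tbr1 it forms a subfamily of its own. Its signals were 8.84, 8.83, 8.75 and 8.87 in the knockdown samples and 8.02, 8.43, 8.19 and 8.25 in the controls. The groups did not overlap, and the rise was 1.51-fold (log2 fold change 0.60, SE 0.09, adjusted p = 0.00683, limma), so that it only just met the fold threshold. It missed 1.5-fold without control replicate 1 (0.53), without knockdown replicate 4 (0.58), with median centring (0.58) and with cyclic loess (0.54), at adjusted p of 0.00613 to 0.0267 in these fits (limma).

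Tbr1, a gene of cortical neurons, had a log2 fold change of 0.11 (adjusted p = 0.261, limma), with knockdown signals of 7.38 to 7.48 above controls of 7.20 to 7.36. The other 4 genes did not separate the groups. They were Tbx1, a gene of the pharyngeal arches (0.05), Tbx19, a pituitary factor gene (0.08), Tbx22, a gene of the palate (-0.08), and Mga, which encodes a T-box protein that also pairs with MAX (-0.09), at adjusted p of 0.519 to 0.624 (limma). Tbx1 and Mga changed sign in other fits, and the means of Tbx19, Tbx22 and Tbr1 lay below the dim level. Of the 6 genes 1 was higher and 0 lower by the rule, with a median of 0.06. At an unadjusted p under 0.05 (limma) the counts were also 1 and 0, beside 16.8% and 13.6% of all genes.

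Among cofactors of T-box proteins, Ripply3 rose, and by more than Tbx3 or Tbx21. The RIPPLY proteins bind T-box factors and turn them into repressors through the Groucho family corepressors, which the TLE genes encode. Ripply3 gave 9.69, 9.52, 9.71 and 9.59 in the knockdown and 8.80, 8.50, 8.15 and 8.63 in the control samples. The groups were far apart, with a 2.16-fold rise (log2 fold change 1.11, SE 0.13, adjusted p = 0.00336, limma), and the call held without each array in turn (0.98 to 1.20, adjusted p = 0.00246 to 0.0147, limma). Of the 10 cofactor genes this was the only one that met the rule, and 0 were lower, with a median log2 fold change of -0.01. At an unadjusted p under 0.05 (limma) 2 were higher and 1 lower, beside 16.8% and 13.6% of all genes. Ripply1 had -0.55 (adjusted p = 0.208, limma), with control replicate 1 at 9.90 beside 10.75 to 10.89 in the other controls and 9.70 to 10.46 in the knockdown samples. Without that array Ripply1 was lower by the rule (-0.78, adjusted p = 0.0438, limma). Ripply2, with a mean signal of 7.54 below the dim level, had 0.03 (adjusted p = 0.820, limma). The listed TLE genes ran in both directions. Tle2 and Tle3 had 0.16 and 0.24 (adjusted p = 0.227 and 0.0563, limma). Tle1 and Tle4 had -0.11 and -0.31 (adjusted p = 0.285 and 0.183, limma).

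**Figure D4:**
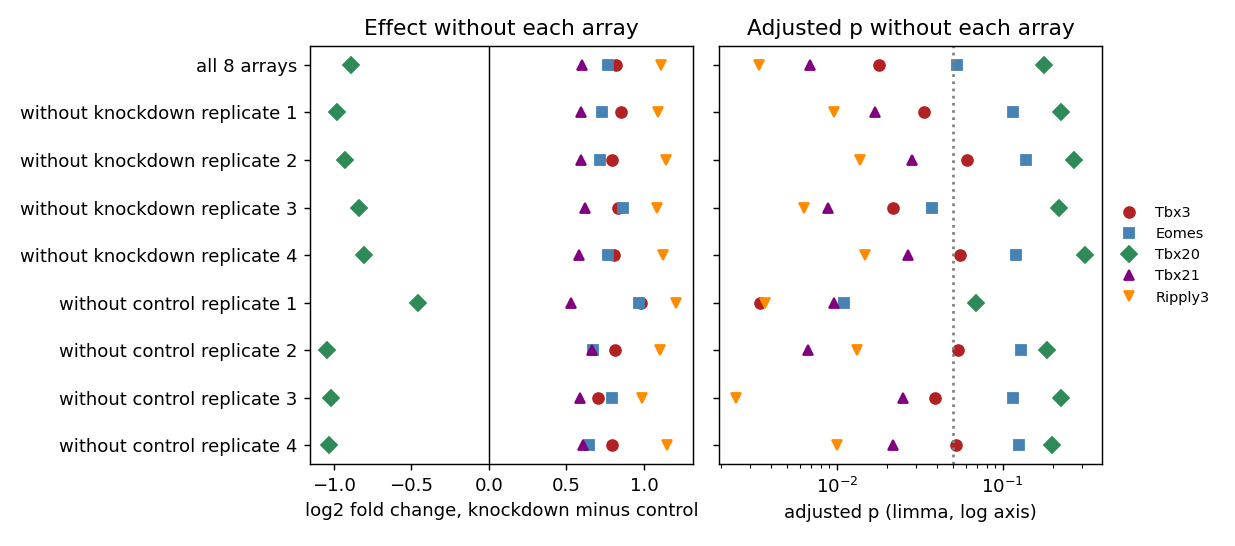
Log2 fold change (left) and adjusted p from limma on a log axis (right) of Tbx3, Eomes, Tbx20, Tbx21 and Ripply3 with all 8 arrays and without each array in turn, with the dotted line at 0.05. Ripply3 stays left of the line throughout, Tbx3 and Eomes cross it, and Tbx20 moves from -0.89 to -0.46 without control replicate 1.

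Among genes that work with or downstream of T-box factors in development, each list held at most 1 call per direction. Of 18 mesendoderm genes, which Eomes and T help to control, 1 was higher, 1 lower and 16 did not meet the rule (median 0.08). The rule called 1.42% and 1.43% of all genes higher and lower, and counts of 1 are too small to be read against such shares. At an unadjusted p under 0.05 (limma) 4 were higher and 4 lower, beside 16.8% and 13.6% of all genes. Lefty2, an inhibitor of Nodal signalling, rose by 0.84 from 9.91 to 10.52 in the controls to 10.96 to 11.31 in the knockdown samples (SE 0.15, adjusted p = 0.0148, limma). Fst, which encodes the activin antagonist follistatin, fell by 0.92 from 9.11 to 9.81 in the controls to 8.44 to 8.54 in the knockdown samples (SE 0.15, adjusted p = 0.0125, limma). For both genes the groups did not overlap, and the call on Lefty2 was lost without knockdown replicate 2 (adjusted p = 0.0524, limma). Also lower at the unadjusted threshold were Wnt3, Snai1 and Nodal, at -0.48, -0.29 and -0.21 (adjusted p = 0.0909, 0.0398 and 0.0681, limma). Also higher were Gata6, Wnt3a and Tdgf1, at 0.32, 0.19 and 0.19 (adjusted p = 0.134, 0.164 and 0.106, limma). The groups did not overlap for 6 of the 18 genes (33.3%), 2 above and 4 below, where 21.0% of all genes were separated. Direct targets of Eomes in the embryo, such as Mixl1 and Mesp1, had 0.14 and 0.12 (adjusted p = 0.209 and 0.444, limma). Mesp1 had a mean signal of 7.55, below the dim level, so that its value says little.

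Of 11 presomitic mesoderm genes, the setting of Tbx6, 0 met the rule with limma. At an unadjusted p under 0.05 (limma) 1 was higher and 0 lower, beside 16.8% and 13.6% of all genes. Cdx4, a caudal homeobox gene, had 0.26 (adjusted p = 0.0304, limma) with signals of 6.39 to 6.46 in the knockdown and 6.07 to 6.25 in the control samples, all below the dim level. Mesp2, a target of TBX6, had 0.14 (adjusted p = 0.240, limma). Of 15 partners of T-box factors in heart and limb, 0 met the rule. An unadjusted p under 0.05 (limma) was reached by 3 higher and 1 lower, beside 16.8% and 13.6% of all genes. Myl7, an atrial myosin gene, had 0.32 (adjusted p = 0.0675, limma). For Wt1, a zinc finger gene of the epicardium, the log2 fold change was -1.003 (SE 0.29, adjusted p = 0.0675, limma), and here control replicate 1, at 8.69, lay among the knockdown arrays, at 8.56 to 8.75, and apart from the other controls, at 9.61 to 10.13. Without that array Wt1 was lower by the rule (-1.32, adjusted p = 0.00374, limma), and its adjusted p ran up to 0.214 among the alternatives.

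No gene of the LIF circuit in which Tbx3 acts met the rule. Of 15 such genes 0 met the rule with limma, at an unadjusted p under 0.05 there were 6 higher and 2 lower, beside the 16.8% and 13.6% of all genes at that threshold, and the median log2 fold change was 0.18. Lifr, which encodes the LIF receptor, had signals of 11.39 to 11.62 in the knockdown and 10.79 to 11.21 in the control samples, with no overlap. Its log2 fold change of 0.56 (SE 0.09, adjusted p = 0.0122, limma) was short of 1.5-fold. Klf4, a pluripotency factor gene downstream of LIF, had 0.43 (SE 0.12, adjusted p = 0.0558, limma), and Pou5f1 had 0.03 (adjusted p = 0.680, limma). The 2 genes lower at the unadjusted threshold were Gbx2, at -0.52 (adjusted p = 0.113, limma), and Dppa3. Dppa3 had -0.51 in 1 of its 2 probe sets and -0.63 in the other (adjusted p = 0.0742 and 0.0791, limma). Of 10 ESC markers, a list that shares genes with the circuit, 0 met the rule with limma (at an unadjusted p under 0.05, 6 and 0), with Fgf4 at 0.37 (adjusted p = 0.0238, limma).

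Of 7 genes reported elsewhere as repressed by TBX2 or TBX3, 5 were measured, of which 0 were higher and 1 was lower by the rule. At an unadjusted p under 0.05 (limma) 1 was higher and 2 lower, beside 16.8% and 13.6% of all genes. Gja1, which encodes connexin 43, fell by 0.82 (SE 0.13, adjusted p = 0.00968, limma), from 12.33 to 12.82 in the controls to 11.47 to 11.91 in the knockdown samples without overlap. Its call held without each array in turn. Cdh1, the E-cadherin gene, had -0.21 (adjusted p = 0.0618, limma), whereas the cell cycle inhibitor gene Cdkn2a and the stress response gene Ndrg1 had 0.29 and 0.63 (adjusted p = 0.218 and 0.118, limma). Cdkn2b had -0.24 (adjusted p = 0.490, limma), with control replicate 1 at 10.13 beside 9.11 to 9.28 in the other controls. The 5 genes thus ran in both directions, with 2 positive and 3 negative values and a median of -0.21. In a fit of passages 28 to 30 alone, with 3 arrays per group and the passage as a block, Tbx3, Tbx21, Ripply3, Lefty2, Fst and Gja1 no longer met the rule, at adjusted p of 0.0562 to 0.103 (limma) and with the signs given above.

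**Figure D5:**
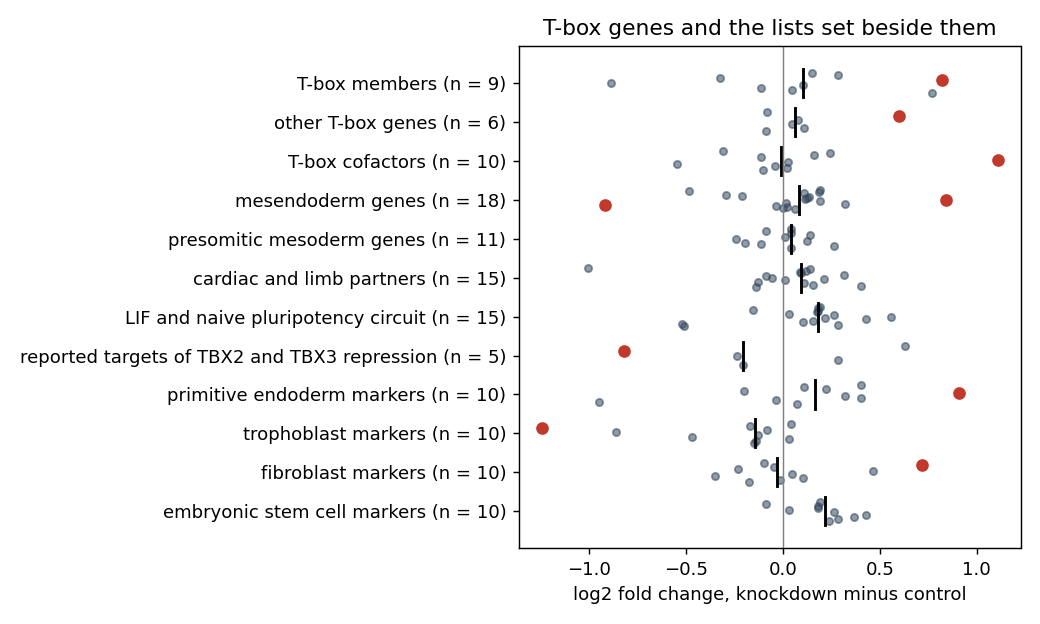
Log2 fold change (knockdown minus control) of every measured gene in the T-box lists and in the lists set beside them. Points are genes, large red points met the gene rule, and black bars are medians. Each list holds at most 2 genes that met the rule, and the medians lie between -0.21 and 0.22.

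The 5 genes whose signal followed that of Tbx3 most closely were Slc48a1, Tle5, Tppp3, Pou2f3 and Pros1. Likeness was the root mean square difference of log2 signals over the 8 arrays, each relative to the control mean, and it was 0.13 for Slc48a1 and Tle5, 0.14 for Tppp3 and Pou2f3 and 0.15 for Pros1. Slc48a1 encodes a heme transporter, Tle5 a short member of the Groucho family and Pou2f3 the factor of tuft cells. As with Tbx3, control replicate 1 was the highest control for each of them, with Tle5 at 12.77 beside 11.91 to 12.41 and Pou2f3 at 9.22 beside 8.34 to 8.77. They were chosen for this pattern, so that their differences are a description only.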

How the data were processed

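RNA of 4 knockdown and 4 control samples of E14 mouse ESCs was measured, each on an Affymetrix Mouse Gene ST array. The authors deposited log2 values made with RMA in oligo 1.18.1, which corrects background, equalizes the distributions and summarizes probes. For the probe sets, the genome build is not given in the sources used here. Scanner intensities were not used. Groups and replicate numbers came from the sample titles.

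Probe sets were named through GEO's platform annotation with symbols updated by RefSeq (GRCm38.p6), which also gave chromosomes, neighbours and start windows. Of 35556 probe sets 21789 named a single gene, and 999 of 19938 genes had more than 1. The linear model of limma 3.58.1 (R 4.3.3, lmFit and eBayes) was fitted to all probe sets without a block, with Benjamini-Hochberg adjusted p-values over all probe sets and the gene rule at 0.05 and 1.5-fold. It was tested on simulated data. Tables were made with pandas 2.3.3 and figures with matplotlib 3.10.9. Precision is limited by the number of arrays.

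Named were Kdm2b, each T-box gene on the list, the called genes of each other list (otherwise the 2 with the smallest p), the neighbours of Tbx3 and Eomes and the 5 genes nearest to Tbx3. Further list members were named after their values were seen (the other T-box genes, Ripply1, Ripply2, Tle1, Tle2, Tle3, Tle4, Mixl1, Mesp1, Wnt3, Snai1, Nodal, Gata6, Wnt3a, Tdgf1, Pou5f1, Gbx2, Dppa3, Cdh1, Cdkn2a, Cdkn2b, Ndrg1, the markers given for control replicate 1 and those in the closing section). The members and lists were chosen with earlier results of these data known.

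The labels describe samples collected in parallel, and after subtraction of group means, knockdown and control arrays of replicates 1, 2, 3 and 4 correlated at 0.239, 0.118, 0.355 and 0.222 over probe sets. Each exceeds 0.1. The reported fit has no block, and the fit with the replicate number as a block is given beside a result where it changes the call. Alternatives were the replicate block, leaving out each array, passages 28 to 30 with the passage as a block, median centring, cyclic loess, filters at the olfactory receptor level and at the median signal, eBayes with trend and robust, array weights, no fold threshold, and the probe set with the highest mean.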

Additional observations from a re-analysis of the deposited data

Results flagged for a closer look

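Among 76 groups of 4 arrays, from 38 named genes, 4 held an array whose gap to its neighbour was most of the group's range (Dixon's test at the 95% level). Chance marks about 1 in 20 groups in this way. The log2 signal of Tbx20 in control replicate 1, at 10.22, was far above the other controls, at 8.48 to 8.54. Mga was low in the same array, at 11.8 beside 12.06 to 12.10. Lifr was low in knockdown replicate 1, at 11.39 beside 11.58 to 11.62 in the other knockdown arrays. Gja1 was high in control replicate 3, at 12.82 beside 12.33 to 12.39 in the other controls. Over all 19938 genes, knockdown replicate 1 and control replicate 1 stood apart in 2.41% and 2.31% of genes, and each of the other arrays in 0.411% to 1.46%.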

How the results depend on the processing

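Kdm2b, Hnf4a, Thy1 and Pros1 met the gene rule under every alternative, and Ripply3, Fst and Gja1 under all but the fit of passages 28 to 30. That fit drops knockdown replicate 1 and control replicate 4, and called 160 genes where 569 were called with all arrays. There T-box members, other T-box genes, cofactors and mesendoderm genes had 0 higher, and mesendoderm genes and TBX2 and TBX3 targets had 0 lower. Tbx3, Tbx21 and Ripply3 missed the threshold at adjusted p = 0.10, 0.103 and 0.0584 (limma), with log2 fold changes of 0.83, 0.60 and 1.12. With the replicate block, T-box members had 2 higher (Tbx3 and Eomes) and trophoblast markers 2 lower (Krt8 and Krt18), and the block changed no other call on a named gene. T-box members had 2 higher with both filters on dim probe sets and with array weights, as Eomes passed at adjusted p = 0.0356, 0.0331 and 0.00601 (limma). Other T-box genes had 0 higher with median centring and with cyclic loess, where Tbx21 missed 1.5-fold.

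Array weights gave 1 lower among cofactors (Ripply1), cardiac and limb partners (Wt1) and the LIF circuit, and 2 lower among trophoblast markers. Both filters gave 1 lower among cardiac and limb partners and 1 lower among primitive endoderm markers. Without a fold threshold, mesendoderm genes had 2 lower, primitive endoderm markers 2 higher, and presomitic mesoderm genes, the LIF circuit, ESC markers and the neighbours 1 higher each (Cdx4, Lifr, Fgf4 and Med13l).

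Leaving out each array in turn gave 0 to 2 higher among T-box members, 0 to 1 among other T-box genes, 0 to 1 lower among cofactors, 0 to 1 higher among mesendoderm genes, 0 to 1 lower among cardiac and limb partners, 0 to 1 higher and 0 to 1 lower in the LIF circuit, 0 to 1 higher among TBX2 and TBX3 targets, 0 to 1 lower among trophoblast markers and 1 to 2 higher among fibroblast markers. The cofactor and cardiac counts came to 1 without control replicate 1 (Wt1 among the latter), which also gave 2 fibroblast markers. The trophoblast count came to 0, when knockdown replicate 2, knockdown replicate 4 or control replicate 4 was left out, since Krt8 missed the threshold there (adjusted p = 0.0572 to 0.0629, limma). The whole count of called genes ran from 358 (without knockdown replicate 2) to 829 (without knockdown replicate 3).

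The sign changed for Tbx15 without knockdown replicate 4 (-0.0016) and without control replicate 2 (-0.053, in a range of -0.053 to 0.196 over single arrays left out), at passages 28 to 30 (-0.019) and with cyclic loess (-0.0072), for Tbx1 at passages 28 to 30 (-5.6e-05) and with cyclic loess (-0.011), and for Mga at passages 28 to 30 (0.016). The cause was not tested for any of these. Both filters on dim probe sets gave no value for Tbx5, Tbx15, Tbx18, Tbx19, Tbx22, Tbr1 and Cdx4, and the filter at the median none for Tbx1. Scaling moved the median of all genes by -0.02.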

Other observations

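Markers of lineages that T-box factors help to set up also held single calls. Of 10 primitive endoderm markers 1 was higher and 0 lower (5 and 1 at an unadjusted p under 0.05, limma, where 16.8% and 13.6% of all genes were higher and lower). Hnf4a, a nuclear receptor gene of endoderm, gave 9.77, 9.78, 9.79 and 9.72 in the knockdown and 8.84, 8.92, 8.76 and 8.91 in the control samples. All knockdown arrays lay above all controls, with a log2 fold change of 0.91 (SE 0.05, adjusted p = 0.000196, limma). Of the 10 markers 7 had positive and 3 negative values. Sox7 had 0.40 (adjusted p = 0.0279, limma), short of 1.5-fold and without overlap of the groups. Gata4, Gata6 and Pdgfra had 0.40, 0.32 and 0.22 (adjusted p = 0.0877, 0.134 and 0.0616, limma). Dab2, which encodes an endocytic adaptor, had -0.95 in 1 of its 2 probe sets (adjusted p = 0.0525, limma, and 0.08 in the other, a dim one), opposite in sign to Hnf4a.

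Of 10 trophoblast markers 1 was lower and 0 higher, where the rule called 1.43% of all genes lower and 1.42% higher. At an unadjusted p under 0.05 (limma) 2 were lower and 0 higher, beside 13.6% and 16.8% of all genes. Eomes, itself a gene of trophoblast stem cells, had a positive value. Krt8, a keratin gene, gave 11.58, 11.15, 10.76 and 10.79 in the knockdown and 12.71, 12.13, 11.80 and 12.60 in the control samples. The groups did not overlap, and Krt8 fell by 1.24 in log2 signal (SE 0.24, adjusted p = 0.0204, limma), a call that was lost when knockdown replicate 2 or 4 or control replicate 4 was left out. Its partner Krt18 had -0.86 (adjusted p = 0.101, or 0.0287 in the fit with the replicate block, limma), and Cdx2 had -0.14 (adjusted p = 0.483, limma). Of 10 fibroblast markers 1 was higher and 0 lower by the rule. At an unadjusted p under 0.05 (limma) 2 were higher and 1 lower, beside 16.8% and 13.6% of all genes. Thy1, a surface glycoprotein gene, rose by 0.72 (SE 0.05, adjusted p = 0.000475, limma), from 9.40 to 9.52 in the controls to 10.14 to 10.25 in the knockdown samples. Pdgfrb had 0.47 and Dcn, dim on average, had -0.35 (adjusted p = 0.177 and 0.0533, limma). The collagen gene Col1a1 had -0.18 (adjusted p = 0.592, limma).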
